A study of Mus musculus with 3 samples.

Results

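Periportal hepatocytes are the liver cells nearest the portal vein and hepatic artery, at the point where blood enters the lobule. Here they are 3949 of 26338 hepatocyte barcodes, out of 30000 barcodes in all, in single-cell RNA sequencing of 3 mouse livers. A hepatocyte barcode had at most 40% of its UMIs (unique molecular identifiers, which count captured transcripts) from mitochondrial genes and fewer than 2 UMIs over 11 genes of other liver cells. Members were chosen by the measured values of 12 genes: they are the 15% of each library's hepatocyte barcodes with the lowest score, which was the UMIs of 6 pericentral genes minus the UMIs of 6 periportal genes, divided by all UMIs. This gave 1302 of 8683 barcodes in the flox/flox liver, 1302 of 8683 in the wt/flox liver and 1345 of 8972 in the wt/wt liver. The 15% with the highest score are called pericentral, and the barcodes between are called middle. Pericentral is thus a rank: the group's median net periportal share, the score with its sign turned, was 0%, -0.129% and 0% in flox/flox, wt/flox and wt/wt. Its barcodes had medians of 4, 3 and 4 UMIs of the periportal and 4, 5 and 5 UMIs of the pericentral score genes.

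The livers came from male C57BL/6 mice aged 9 weeks, with 1 library per Adar1 genotype: flox/flox, wt/flox and wt/wt. All 3 mice, wt/wt included, were Ifih1-/-, so that they lacked the RNA sensor MDA5, and all carried Alb-Cre, a recombinase driven by the albumin promoter that acts in hepatocytes. Adar1 encodes an enzyme that edits adenosines in double-stranded RNA, and the gene is listed as Adar. Cells were released by collagenase perfusion and spun at low speed after red cell lysis, so that cell shares follow the isolation. With 1 library per genotype, genotype cannot be told apart from mouse or library, and no genotype difference was tested.

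Blood flows from the portal side of a lobule to its central vein, and hepatocytes divide metabolic tasks along that path. Periportal cells are known for gluconeogenesis, urea synthesis and the breakdown of amino acids in oxygen-rich blood. Pericentral cells are known for glutamine synthesis, bile acid synthesis and drug oxidation by cytochromes P450, under Wnt signals from the central vein.

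The deposited matrix held exactly 10000 barcodes of each library. Members held 1253208, 1231923 and 1270311 UMIs in the flox/flox, wt/flox and wt/wt libraries, with medians of 867.5, 857 and 823 UMIs per barcode. The score therefore rested on few counts: a member had a median of 13, 11 and 14 UMIs over all 12 score genes. Its variance over barcodes was 2.12, 1.57 and 1.55 times that of counting error alone. The net periportal share of the last member inside and the first barcode outside was 1.01% and 1.01% in flox/flox, 0.744% and 0.744% in wt/flox, and 1.0795% and 1.0791% in wt/wt, with 3, 3 and 1 barcodes tied at the cut. Members of different libraries shared 0 barcode sequences. Doublets were not called and remain in the data.

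The 12 score genes chose the members, so that their values describe the split and test nothing. At least 1 of the 4 defining markers Cyp2f2, Hal, Sds and Hsd17b13 was detected in 94.8%, 93.3% and 92.9% of members in the flox/flox, wt/flox and wt/wt livers. Cyp2f2, a periportal cytochrome P450, stood at 1851, 1442 and 1122 CPM (a gene's UMIs per 1000000 UMIs of that zone and library) in periportal barcodes, against 496, 474 and 395 CPM in pericentral barcodes of the flox/flox, wt/flox and wt/wt livers, an order of libraries kept below. Sds, a serine dehydratase that feeds gluconeogenesis, stood at 797, 401 and 1026 CPM in periportal barcodes, against 130.3, 75.4 and 184 CPM in pericentral ones. Hal, the first enzyme of histidine breakdown, stood at 685, 934 and 865 CPM, against 175, 255 and 241 CPM. Hsd17b13, a lipid droplet protein, stood at 433, 248 and 252 CPM, against 102, 78.6 and 72.7 CPM. Every library was highest in its own periportal barcodes, and the wt/flox liver was lowest for Sds.

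Pck1, the rate-setting enzyme of gluconeogenesis, and Ass1, a urea cycle enzyme, supplied 42.0% and 24.6% of the members' score UMIs in flox/flox, 26.9% and 36.9% in wt/flox, and 32.9% and 37.5% in wt/wt. The rule therefore leaned on these 2 genes more than on the 4 markers. Barcodes set aside as other cells, with 2 or more UMIs of the other-cell genes, held Cyp2f2 at 443, 458 and 361 CPM, close to the pericentral level. They held Hal at 244, 390 and 310 CPM and Sds at 199, 110 and 269 CPM, above the pericentral level in every library. Ass1 and Pck1 also lay above it, and Hsd17b13, at 82.2, 63.6 and 62.4 CPM, lay below it. A Cyp2f2 UMI was found in 74.9%, 67.9% and 60.1% of members (median depths of 867.5, 857 and 823 UMIs), against 39.7%, 38.7% and 33.6% of other-cell barcodes (median depths of 1121, 1066 and 1037.5 UMIs). With every barcode thinned to 600 UMIs these shares were 62.4%, 53.2% and 45.0%, against 23.2%, 22.6% and 20.1%, and a share at the other-cell level is read here as background. Of the other-cell barcodes 19 of 1091, 67 of 1237 and 36 of 906 would have passed the periportal cut, which is 1.74%, 5.42% and 3.97%.

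The 12 score genes were left out of every test that follows. UMIs were summed per library and zone, and the 9 sums were fitted with edgeR, with the library as block, so that the 3 livers repeat the zone contrast and its p-values measure the spread of that contrast over 3 mice of different genotypes. Of 8369 genes, 585 (6.99%) differed between periportal and pericentral barcodes at an adjusted p below 0.05, with 214 (2.56%) higher and 371 (4.43%) lower in periportal. Against middle barcodes 281 (3.36%) differed, with 70 (0.836%) higher and 211 (2.52%) lower. The median over all genes was log2 0.02 against pericentral and 0.01 against middle. Without the flox/flox liver 228 genes passed against pericentral and 175 against middle, without the wt/wt liver 335 and 102, and without the library block 33 and 0.

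Genes of other cells were among the lower genes, and their share of the 371 was not counted. By its construction the score is 0 for a barcode with none of the 12 genes, and such a barcode cannot be a member. In flox/flox and wt/wt it falls among the pericentral barcodes, whose net periportal shares reached 0.212% and 0.166%. In wt/flox the pericentral cut lay at 0, so that it can be pericentral or middle. The part of such barcodes in the lower genes was not tested. A wider list of 80 other-cell genes reached 2 UMIs in 3.61%, 7.76% and 3.42% of periportal barcodes, against 14.4%, 16.7% and 10.2% of pericentral and 11.3%, 18.2% and 10.1% of middle barcodes. Lymphocyte markers summed to 67.0, 89.3 and 36.2 CPM in periportal barcodes, against 346, 178 and 156 CPM in pericentral ones, and neutrophil and erythroid markers to 57.5, 1549 and 107 CPM, against 332, 12999 and 3464 CPM. Endothelial markers summed to 42.3, 109.6 and 32.3 CPM, against 140.4, 157 and 165 CPM, and Kupffer cell and macrophage markers to 63.8, 97.4 and 40.1 CPM, against 259, 222 and 87.6 CPM. Bile duct markers, which border the portal tract, summed to 764, 1006 and 756 CPM, against 882, 1025 and 827 CPM, with Krt7, Krt19, Tspan8, Cldn7 and Cftr at 0 in every periportal library. The 12 genes with the largest falls were Jchain, Igha, Iglc1, Igkc, Hist1h2ap, Hbb-bt, H2-Ab1, Mzb1, Iglc2, Il7r, Hbb-bs and Crip1, which are antibody, haemoglobin, histone, antigen presentation and lymphocyte genes. Jchain, the joining chain of secreted antibodies, had 0, 0 and 0 UMIs in periportal barcodes, against 976, 101 and 101 UMIs in pericentral ones. For this reason a stricter filter, added after the data were seen, also removed every barcode with 2 or more UMIs of the 80 genes, and left those genes out of the test. It called 386 of 7859 genes (4.91%), 117 higher (1.49%) and 269 lower (3.42%). With this filter 100 of the 214 higher genes were called higher again and 154 of the 371 lower genes lower again, and 0 turned direction. Calls did turn under other scores. With barcodes ranked by the pericentral score genes alone 159 genes were called the opposite way, and with equal score weights 7. Calls lost with the strict filter are named below for the genes described with values.

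**Figure D1:**
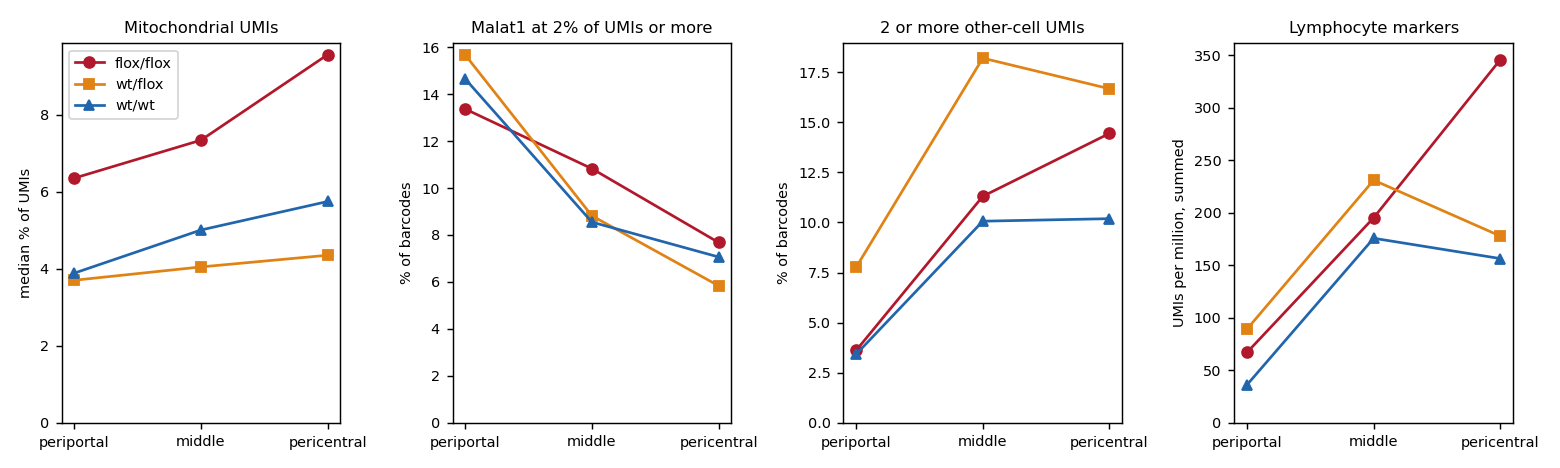
Measures of RNA quality and other cells in periportal, middle and pericentral barcodes of each library (red circles flox/flox, orange squares wt/flox, blue triangles wt/wt): median percent of mitochondrial UMIs, percent of barcodes with Malat1 at 2% of UMIs or more, percent of barcodes with 2 or more UMIs of 80 other-cell genes, and summed lymphocyte markers in CPM. Mitochondrial and other-cell measures were lowest, and the share of Malat1-rich barcodes highest, in the periportal barcodes of all 3 libraries.

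Signs of RNA quality also moved along the score. The median mitochondrial share was 6.35%, 3.70% and 3.89% in periportal, against 9.56%, 4.35% and 5.75% in pericentral barcodes. All 13 mitochondrially encoded genes were lower in periportal barcodes (median log2 -0.42), where the score's own denominator counts their UMIs. Malat1, a nuclear RNA, reached 2% of UMIs in 13.4%, 15.7% and 14.6% of periportal barcodes, against 7.68%, 5.84% and 7.06% of pericentral ones. The nuclear RNAs Neat1 (log2 0.90 ± 0.06, SE, adjusted p = 5.83e-10), Malat1 (log2 0.65) and Kcnq1ot1 (log2 0.65) were all higher. The median Malat1 share hardly differed, at 0.143%, 0.133% and 0.132% of UMIs in periportal, against 0.142%, 0.128% and 0.129% in pericentral barcodes, so that the difference lay in the Malat1-rich barcodes. The part of these barcodes in the gene results was not tested beyond 1 alternative: among barcodes at or below their library's median Malat1 share, 273 genes were called against pericentral and 24 against middle. It kept 45 of 214 higher and 115 of 371 lower calls against pericentral, and 0 of 70 and 12 of 211 against middle. Every call above middle named below was thus lost under it. With 651, 652 and 673 members it also had fewer counts, so that lost calls cannot be put down to Malat1.

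Periportal markers that the score did not use were higher in periportal barcodes. Of 16 such markers 15 were tested against pericentral barcodes, and 10 were higher and 0 lower, with a median of log2 0.50 against 0.02 for all genes. Against middle barcodes 4 of the 15 were higher and 0 lower (median log2 0.19). The shares over all genes were 2.56% higher and 4.43% lower against pericentral, and 0.836% and 2.52% against middle barcodes. In the single libraries the median was 0.65 in flox/flox, 0.45 in wt/flox and 0.45 in wt/wt. With the strict filter 8 were higher and 2, Alb and Nrn1, were lower (log2 -0.14 and -0.32). With barcodes ranked by the 6 pericentral score genes alone, so that no periportal gene entered the rule, the medians were 0.46, 0.38 and 0.37. The list was chosen with earlier results of these data known and is no independent evidence of its direction.

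Sult5a1, a sulfotransferase, showed the largest rise among the genes that the naming rule admitted. It stood at 16.0, 32.5 and 21.3 CPM in periportal barcodes (20, 40 and 27 UMIs), 10.5, 22.2 and 13.8 CPM in middle and 4.30, 11.1 and 3.13 CPM in pericentral barcodes. Within every liver the periportal level was the highest and the pericentral the lowest (log2 1.87 ± 0.29, SE, adjusted p = 9.83e-05). Against middle barcodes it did not pass the test (log2 0.57, adjusted p = 0.0924). Hsd17b6, a steroid and retinoid dehydrogenase, stood at 55.9, 94.2 and 92.1 CPM in periportal, 40.8, 64.4 and 62.5 CPM in middle and 27.2, 55.6 and 39.9 CPM in pericentral barcodes. It was higher at the periportal end against both other zones (log2 0.95 ± 0.13, SE, adjusted p = 2.74e-05; against middle log2 0.52, adjusted p = 0.00289). The flox/flox liver had the lowest Hsd17b6 level of the 3 in each zone.

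Enzymes of histidine breakdown downstream of Hal followed the same order. Uroc1, urocanase, stood at 317, 357 and 401 CPM in periportal, 259, 309 and 339.8 CPM in middle and 177, 262 and 251 CPM in pericentral barcodes (log2 0.61 ± 0.07, SE, adjusted p = 2.14e-06). Ftcd, which passes the pathway's formimino group to folate, stood at 256, 281 and 351 CPM in periportal, 208, 207 and 253 CPM in middle and 155, 191 and 201 CPM in pericentral barcodes (log2 0.66 ± 0.07, SE, adjusted p = 8.93e-07). Amdhd1, the enzyme between them, was also higher (log2 0.54). Uroc1 and Ftcd were higher than in middle barcodes as well (log2 0.24, adjusted p = 0.0235, and log2 0.40, adjusted p = 1.52e-04). Etnppl, which breaks down phosphoethanolamine, stood at 299, 244 and 321 CPM in periportal, against 125, 147 and 203 CPM in pericentral barcodes (log2 0.84 ± 0.09, SE, adjusted p = 3.98e-07). The pericentral levels of Etnppl lay close to the 117, 132 and 203 CPM of other-cell barcodes, whereas those of Uroc1 lay above the 130.2, 176 and 159 CPM found there.

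The remaining markers varied more. Gls2, a glutaminase that supplies ammonia to the urea cycle, stood at 259, 354 and 454 CPM in periportal, against 165, 283 and 333 CPM in pericentral barcodes (log2 0.42 ± 0.07, SE, adjusted p = 2.05e-04). Gldc of the glycine cleavage system (log2 0.37) and Aldh1b1, a mitochondrial aldehyde dehydrogenase (log2 0.50), were called higher but missed the threshold with the strict filter (log2 0.21, adjusted p = 0.256, and log2 0.49, adjusted p = 0.0511). Ctsc, a lysosomal protease, was called (log2 0.52) with library values of 0.59, 0.85 and 0.04, and its level in other-cell barcodes, 321, 348 and 203 CPM, lay far above its 70.2, 113 and 44.1 CPM in periportal ones. Mup20, a male pheromone protein, stood at 22276, 13179 and 9110.4 CPM in periportal, against 15062, 10301 and 7620.4 CPM in pericentral barcodes (log2 0.35 ± 0.05, SE, adjusted p = 3.24e-05). Apoa4, Cdh1, Pigr, Alb and Nrn1 did not pass the test, with values of log2 0.52, 0.42, 0.11, -0.01 and -0.17, and Cyp17a1 had too few UMIs to be tested. Alb was called higher in barcodes of at least 1000 UMIs (log2 0.23, adjusted p = 0.00508) and with equal score weights (log2 0.21, adjusted p = 3.36e-06), and lower with the strict filter (adjusted p = 0.0128).

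**Figure D2:**
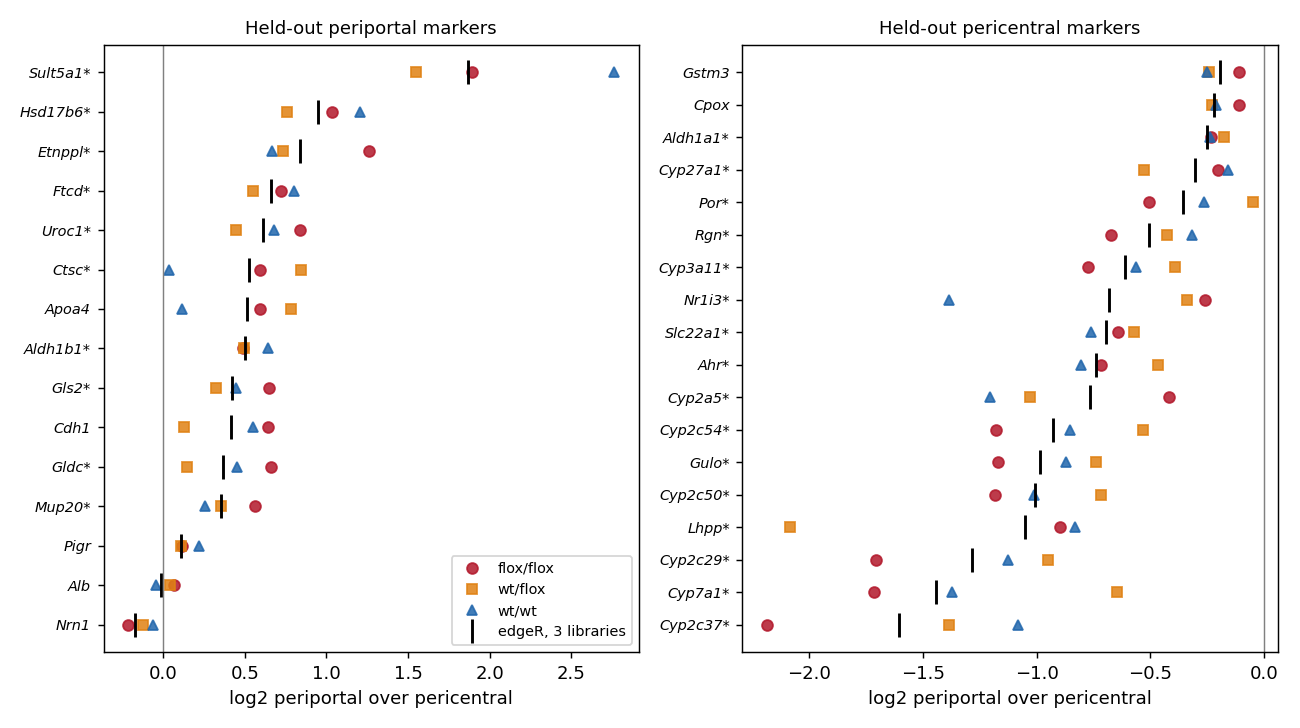
Log2 ratio of periportal over pericentral CPM for markers outside the score, by library (red circles flox/flox, orange squares wt/flox, blue triangles wt/wt), with the edgeR estimate over 3 libraries as a black bar and an asterisk at an adjusted p below 0.05. Of the periportal markers 10 of 15 were called higher, and of the pericentral markers 16 of 18 were called lower in periportal barcodes. The shares over all genes were 2.56% higher and 4.43% lower.

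Markers of the opposite end were lower in periportal barcodes. Of 21 pericentral markers outside the score 18 were tested, and 0 were higher and 16 lower, against 2.56% and 4.43% of all genes. Their median was log2 -0.72 (-0.70 in flox/flox, -0.53 in wt/flox and -0.82 in wt/wt). With the strict filter all 18 were lower (median log2 -0.85). With barcodes ranked by the 6 periportal score genes alone the medians were nearer 0, at -0.08 in flox/flox, -0.09 in wt/flox and -0.31 in wt/wt. Cyp2c37, a cytochrome P450 of fatty acid and drug oxidation, stood at 22.3, 34.1 and 30.7 CPM in periportal, 26.7, 48.3 and 34.3 CPM in middle and 102, 88.9 and 64.9 CPM in pericentral barcodes (log2 -1.60 ± 0.20, SE, adjusted p = 6.94e-06). Cyp2c29, a close paralog, stood at 179.5, 368 and 316 CPM in periportal, 211, 442 and 417 CPM in middle and 586, 711 and 691 CPM in pericentral barcodes (log2 -1.28 ± 0.11, SE, adjusted p = 1.75e-08). Reads of such paralogs may be shared between them. Against middle barcodes 1 of the 18 markers, Rgn, passed the test and was lower (log2 -0.21, adjusted p = 0.0330), against 2.52% of all genes.

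Wnt and beta-catenin targets were lower at the periportal end in each case that could be tested, 5 of 14 genes. All 5 were called lower (median log2 -1.02), against 4.43% of all genes. Tbx3, a transcription factor, had 4, 7 and 4 UMIs in periportal barcodes, against 15, 13 and 16 in pericentral ones (log2 -1.51 ± 0.38, SE, adjusted p = 0.0146). Notum, a secreted Wnt inhibitor, stood at 11.2, 8.12 and 13.4 CPM, against 22.2, 17.5 and 36.8 CPM (log2 -1.26 ± 0.24, SE, adjusted p = 0.00122). Cldn2, a tight junction claudin, had 29, 41 and 28 UMIs, against 74, 71 and 58 UMIs (log2 -1.02 ± 0.16, SE, adjusted p = 1.29e-04). Rnase4 (log2 -0.73) and Ang (log2 -0.45) overlap on 1 strand of chromosome 14 and may share reads. Axin2 and Lgr5 were among the 9 targets with too few UMIs, at 3, 6 and 0 and 1, 2 and 2 UMIs in periportal barcodes.

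**Figure D3:**
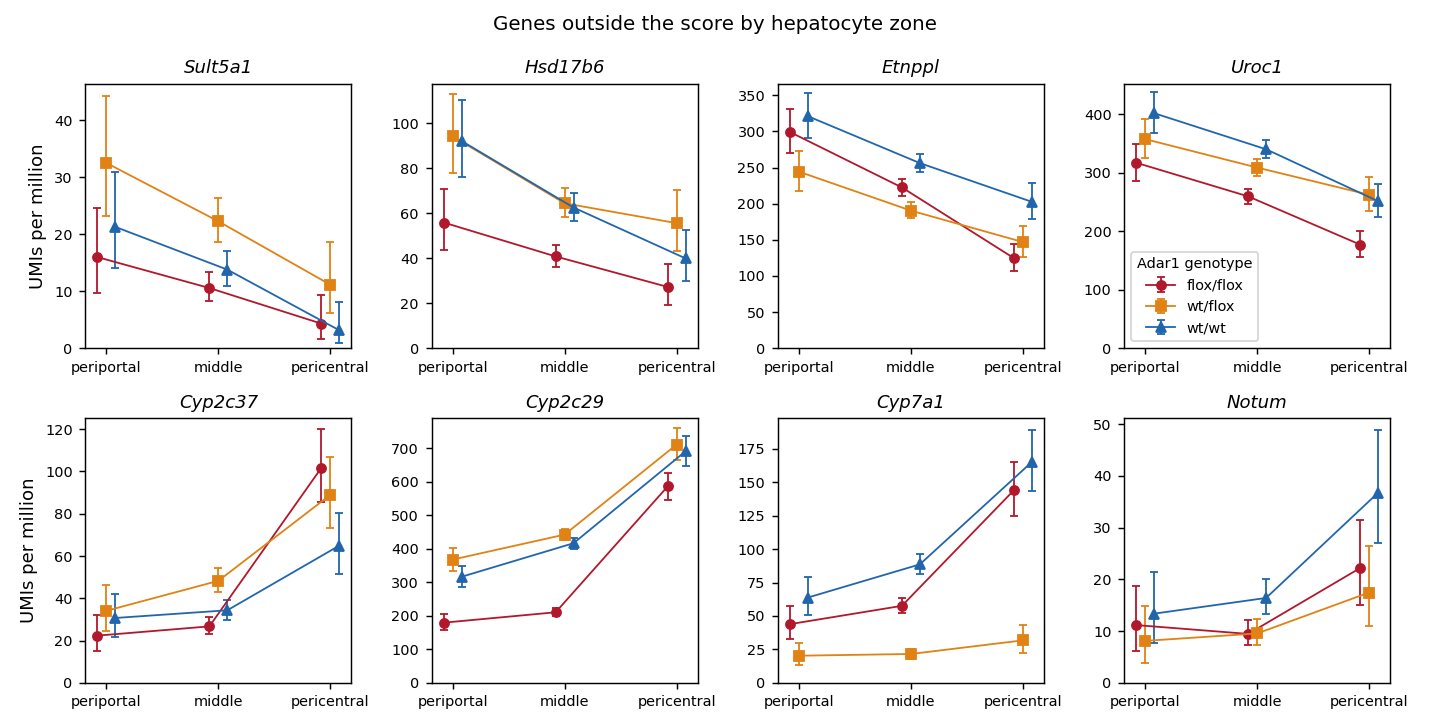
Levels of 8 genes outside the score, in CPM, in periportal, middle and pericentral barcodes of each library (red circles flox/flox, orange squares wt/flox, blue triangles wt/wt), with exact Poisson 95% intervals that cover counting error only. Sult5a1, Hsd17b6, Etnppl and Uroc1 were highest in periportal barcodes of every library, and Cyp2c37, Cyp2c29, Cyp7a1 and Notum were highest in pericentral barcodes of every library.

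Promoters are shown for 2 genes higher and 2 genes lower in periportal barcodes in both the main and the strict test, chosen after their values were seen, since beta-catenin acts on pericentral genes through TCF and LEF factors, which bind DNA at letters like these. Aldh1a1, a retinal dehydrogenase, was called at log2 -0.25 and -0.40 with the strict filter. The sequences are RefSeq windows on GRCm38.p6 from 250 bases before to 50 bases after the annotated start, 5′ to 3′ on the gene's strand. Capitals mark the letters CTTTGAA or CTTTGAT, searched on both strands, and a window without capitals held neither. Sult5a1 lies at chr8:123158231-123158530 on the minus strand, Etnppl at chr3:130617198-130617497 on the plus strand, Cyp2c29 at chr19:39286835-39287134 on the plus strand and Aldh1a1, which has 2 annotated starts, at chr19:20492333-20492632 and chr19:20601718-20602017 on the plus strand. Etnppl has a second, overlapping window that also held neither.
Sult5a1: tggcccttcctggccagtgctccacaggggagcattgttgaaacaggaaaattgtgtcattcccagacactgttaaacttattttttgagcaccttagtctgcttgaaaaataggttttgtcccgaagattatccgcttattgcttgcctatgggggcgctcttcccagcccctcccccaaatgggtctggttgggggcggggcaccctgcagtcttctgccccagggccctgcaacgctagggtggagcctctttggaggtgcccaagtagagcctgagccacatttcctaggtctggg
Etnppl: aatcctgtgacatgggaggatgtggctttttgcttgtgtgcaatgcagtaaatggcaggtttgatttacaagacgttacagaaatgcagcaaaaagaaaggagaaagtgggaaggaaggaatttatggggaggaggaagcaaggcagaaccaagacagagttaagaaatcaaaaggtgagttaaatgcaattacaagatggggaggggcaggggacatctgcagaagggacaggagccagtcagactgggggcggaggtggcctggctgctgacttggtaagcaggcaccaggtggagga
Cyp2c29: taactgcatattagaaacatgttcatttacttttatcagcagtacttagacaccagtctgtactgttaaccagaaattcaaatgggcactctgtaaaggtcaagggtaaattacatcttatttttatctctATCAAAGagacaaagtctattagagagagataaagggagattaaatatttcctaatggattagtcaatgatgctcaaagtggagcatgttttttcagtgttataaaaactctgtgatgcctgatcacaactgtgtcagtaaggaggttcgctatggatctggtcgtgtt
Aldh1a1 upstream start: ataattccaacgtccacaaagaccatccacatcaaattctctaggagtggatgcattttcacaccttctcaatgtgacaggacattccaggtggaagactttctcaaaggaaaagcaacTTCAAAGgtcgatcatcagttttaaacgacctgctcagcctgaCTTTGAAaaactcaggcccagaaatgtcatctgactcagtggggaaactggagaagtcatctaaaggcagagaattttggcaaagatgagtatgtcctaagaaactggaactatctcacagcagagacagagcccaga
Aldh1a1 downstream start: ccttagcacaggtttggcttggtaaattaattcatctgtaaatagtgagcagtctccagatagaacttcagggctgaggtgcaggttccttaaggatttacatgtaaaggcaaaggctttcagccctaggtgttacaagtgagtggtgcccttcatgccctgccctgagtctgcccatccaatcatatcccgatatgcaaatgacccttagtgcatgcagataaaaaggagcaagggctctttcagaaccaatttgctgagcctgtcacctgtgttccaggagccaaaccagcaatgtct

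The Cyp2c29 window held the letters 1 time and the upstream Aldh1a1 window 2 times, while the downstream Aldh1a1 window held them 0 times. A gene was counted where any of its windows held the letters. Among the 100 genes higher in both tests 74 had a window and 4 of these (5.41%) held the letters. Among the 154 genes lower in both tests 104 had a window and 13 (12.5%) held them. Cyp2c29 and Aldh1a1 are 2 of these 13, so that the lower genes shown are not typical of their set. Of all tested genes with a window the share was 483 of 6708 (7.20%), and of all 27025 genes with a window it was 9.88%. A match is a description of the letters and not a binding site.

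Many enzymes that break down amino acids were higher at the periportal end. Of 30 genes of amino acid breakdown 14 were higher and 1, Prodh, was lower (median log2 0.20), against 2.56% and 4.43% of all genes, and with the strict filter 9 were higher and 2 lower. Against middle barcodes 4 of the 30 were higher and 0 lower (median log2 0.14), against 0.836% and 2.52% of all genes. Sdsl, a serine dehydratase-like enzyme and a relative of the score gene Sds, stood at 24.7, 28.4 and 40.9 CPM in periportal, against 10.0, 13.5 and 18.0 CPM in pericentral barcodes (log2 1.15 ± 0.22, SE, adjusted p = 0.00106). Got1, cytosolic aspartate aminotransferase, stood at 652, 238 and 714 CPM, against 481, 171 and 512 CPM (log2 0.43 ± 0.06, SE, adjusted p = 1.29e-05). Agxt (log2 0.37), Gnmt (log2 0.35), Kynu (log2 0.30) and Tat (log2 0.20), which act on glyoxylate and alanine, glycine, kynurenine and tyrosine, were also higher. Kynu and Tat were not called with the strict filter.

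Of 13 genes of the urea cycle and ammonia handling 4 were higher and 0 lower (median log2 0.06), against 2.56% and 4.43% of all genes. With the strict filter 3 were higher and 0 lower, and the median was log2 -0.065. Against middle barcodes 2 were higher and 0 lower (median log2 0.11), against 0.836% and 2.52% of all genes. Asl, argininosuccinate lyase, which acts next after the score gene Ass1, stood at 485, 399 and 723 CPM in periportal, 388, 329.6 and 578 CPM in middle and 282, 311 and 470.1 CPM in pericentral barcodes (log2 0.56 ± 0.07, SE, adjusted p = 3.79e-06). Arg1, arginase, stood at 1506, 1459 and 1604 CPM in periportal, against 1083, 1154 and 1255 CPM in pericentral barcodes (log2 0.35 ± 0.05, SE, adjusted p = 1.28e-05). Otc, the mitochondrial enzyme that makes citrulline, was called at log2 0.22 and not with the strict filter (log2 0.13, adjusted p = 0.180). Cps1, which makes carbamoyl phosphate, did not pass the test at 2593, 1942 and 2440.3 CPM in periportal, against 2309, 1871 and 2437 CPM in pericentral barcodes (log2 0.04 ± 0.04, SE, adjusted p = 0.746).

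For the lists that follow, the shares over all genes were 2.56% higher and 4.43% lower. Of 13 genes of gluconeogenesis 5 were higher and 0 lower (median log2 0.15). Against middle barcodes 2 of the 13 were higher and 0 lower (median log2 0.078), against 0.836% and 2.52% of all genes. The score gene Pck1 belongs to this pathway, so that the list is not independent of the rule. A score without Pck1 kept 70 of the 214 higher calls over all genes. The calls of this list under that score are not given here. Ppargc1a, a coactivator of fasting genes, stood at 114, 24.4 and 80.3 CPM in periportal, against 65.9, 17.5 and 48.5 CPM in pericentral barcodes (log2 0.69 ± 0.13, SE, adjusted p = 9.33e-04), and the wt/flox liver was lowest in both zones. Fbp1, fructose bisphosphatase, stood at 966, 1109 and 1007 CPM, against 635, 869.5 and 719 CPM (log2 0.44 ± 0.05, SE, adjusted p = 3.42e-06). Mdh1, cytosolic malate dehydrogenase (log2 0.22), was higher too, although not called with the strict filter. G6pc, glucose-6-phosphatase, did not pass the test (log2 0.14), with library values of 0.50, 0.08 and -0.11. Of 17 glycolysis and lipogenesis genes 3 were higher and 1 lower: Acaca (log2 0.55), Acly (log2 0.39) and the regulator Mlxipl (log2 0.28, not called with the strict filter) stood above, and the desaturase Scd1 (log2 -0.23) below, the pericentral level.

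Other lists also held called genes, beside 2.56% higher and 4.43% lower over all genes (1.49% and 3.42% with the strict filter). Of 10 metallothionein and glucocorticoid-responsive genes 4 were higher and 0 lower (median log2 0.31): Fkbp5 (log2 0.41), Mt2 (log2 0.34), Mt1 (log2 0.33) and Tat. Of 26 nuclear genes of oxidative phosphorylation 4 were higher, the ATP synthase subunits Atp5a1, Atp5b, Atp5h and Atp5j (median log2 0.12), and 1 of the 26 with the strict filter. Of 15 apolipoprotein genes 1 was higher, Apoc2 (log2 0.30), and 5 were lower, among them Apoe (log2 -0.34) and Apoh (log2 -0.31). Of 8 hypoxia genes 1 was higher, the vessel growth factor Vegfa (log2 0.46). Of 88 ribosomal protein genes 22 were lower (median log2 -0.12), and 3 of 87 with the strict filter. Of 19 MHC class I genes 3 were lower, H2-D1, Calr and H2-K1 (log2 -0.44, -0.27 and -0.17), with H2-D1 at 1051, 904 and 1076 CPM in other-cell barcodes and 314, 229.7 and 154 CPM in periportal ones.

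Some genes of bile acid and drug metabolism were lower in periportal barcodes, and most were not called. Over all genes 2.56% were higher and 4.43% lower. Of 15 bile acid genes 0 were higher and 6 lower (median log2 -0.10, and 0.061 against middle barcodes). Cyp7a1, the rate-limiting enzyme of bile acid synthesis, stood at 43.9, 20.3 and 63.8 CPM in periportal, against 144, 31.8 and 165 CPM in pericentral barcodes (log2 -1.44 ± 0.14, SE, adjusted p = 2.54e-07). The wt/flox liver had the lowest level in each zone. Slco1b2, a bile acid and drug uptake transporter, stood at 558, 601 and 421 CPM, against 1101, 885 and 747 CPM (log2 -0.83 ± 0.06, SE, adjusted p = 4.18e-09). Of 32 xenobiotic and glutathione enzymes 4 were higher and 11 lower (median log2 -0.17, and 0.035 against middle barcodes), with Sult1a1, Gclc, Gstp1 and Fmo5 higher and cytochromes of the Cyp2c family lowest. Of 14 major urinary protein genes 1 was higher, Mup20, and 4 were lower, with Mup17 at log2 -1.24, although these genes are near copies whose reads may be shared.

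Outside the lists, the rule for named genes took the 12 largest rises. Besides Sult5a1, Sdsl and Hsd17b6 these were Clec2h, Egfros, AC135859.1, Pcsk5, Col5a3, Pyroxd2, Slc16a6, Ctcflos and Shfl, between log2 1.00 and 1.72. Clec2h, a C-type lectin, had 17, 45 and 20 UMIs in periportal, against 6, 5 and 14 UMIs in pericentral barcodes, with the widest gap in wt/flox. Pcsk5, a proprotein convertase, had 26, 12 and 18 UMIs in periportal, against 11, 3 and 8 UMIs in pericentral barcodes. Col5a3, a fibrillar collagen chain, stood at 36.7, 42.2 and 55.1 CPM, against 12.2, 18.3 and 24.2 CPM (log2 1.27 ± 0.19, SE, adjusted p = 5.25e-05), while 5.82, 11.2 and 13.2 CPM were found in other-cell barcodes. Egfros lies at chr11:16815431-16830702, minus strand, of mm10, inside and antisense to Egfr, and stood at 27.9, 73.9 and 41.7 CPM in periportal, against 5.01, 30.2 and 9.39 CPM in pericentral barcodes (log2 1.68 ± 0.23, SE, adjusted p = 2.34e-05). Egfr itself, the receptor in the study's title, did not pass the test at 594, 227 and 398 CPM, against 531, 226 and 358 CPM (log2 0.09). Whether counting used strand is not given in the sources used here, so that reads of these 2 genes cannot be told apart.

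**Figure D4:**
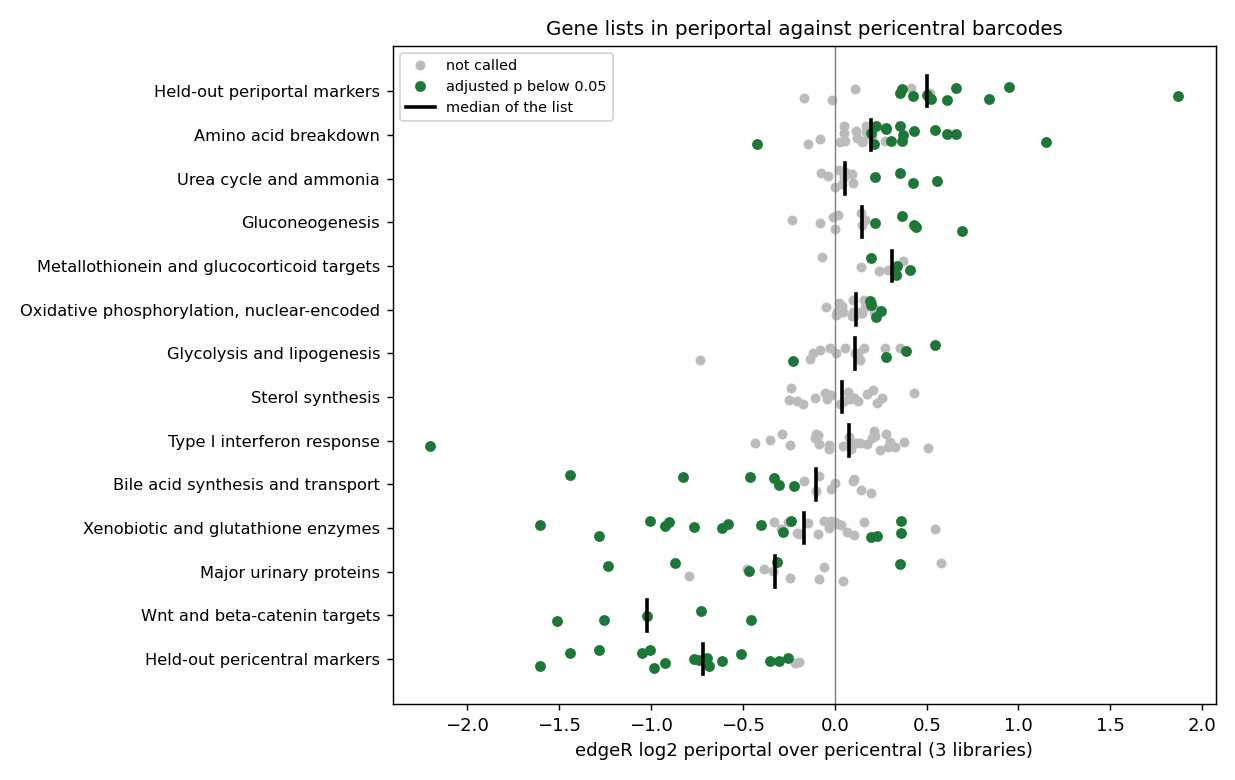
EdgeR log2 fold change of periportal over pericentral barcodes for the tested members of 14 gene lists, with genes at an adjusted p below 0.05 in green, other genes in grey and the list's median as a black bar. Lists of amino acid breakdown, gluconeogenesis and metallothioneins have their called genes mostly on the positive side, and lists of bile acid, xenobiotic, Wnt and pericentral genes mostly on the negative side.

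The study's title names progranulin and EGFR. Of 17 genes of that pathway 10 were tested, and 1 was higher, against 2.56% of all genes, Errfi1, a feedback inhibitor of EGFR (log2 0.27), and 1 was lower, against 4.43%, Psap, a lysosomal partner of progranulin (log2 -0.82). Psap stood at 1439, 884 and 862 CPM in other-cell barcodes, above its 142, 107 and 106 CPM in periportal and 278, 156 and 179.9 CPM in pericentral ones. Grn, which encodes progranulin, did not pass the test at 130.1, 77.1 and 77.9 CPM, against 125, 87.3 and 80.6 CPM (log2 -0.08 ± 0.10, SE, adjusted p = 0.810), and reached 792, 533 and 494 CPM in other-cell barcodes.

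Between genotypes the periportal barcodes are compared as 3 libraries, with ratios of CPM in which counts under 3 were set to 3, and exact 95% intervals that were taken from the counts as observed and cover counting error only. Adar had 43, 30 and 13 UMIs in flox/flox, wt/flox and wt/wt members, or 34.3, 24.4 and 10.2 CPM. The kit counts the 3′ ends of transcripts and the deleted exons are not given in the sources used here, so that these counts do not check the deletion. Ifih1, which all 3 mice lack, had 0, 1 and 0 UMIs.

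Type I interferon response genes were higher in periportal barcodes of the flox/flox liver. Of the 40 genes of the list 29 had at least 20 UMIs over the 3 libraries' members, and 28 of these were at least 1.5-fold above wt/wt (median log2 2.43), against 17% of all 8738 genes measured, whose median was 0.04. A gene that reached 20 UMIs through flox/flox alone had to differ, so that the values of single genes below carry the description. Over wt/flox 20 of 29 were at least 1.5-fold higher (median log2 1.21), against 15.4% of all genes. In wt/flox over wt/wt 13 of 28 were at least 1.5-fold higher (median log2 0.57), against 13.1%. Pericentral barcodes gave medians of 1.92, 1.40 and 0.71 for the same 3 ratios over 31, 31 and 30 genes, and whether zone and genotype interact cannot be tested with 1 liver each. With the strict filter the periportal medians were 2.29, 1.25 and 0.53. Of 29 interferon genes tested by zone over the 3 livers 0 were higher and 1 lower in periportal barcodes. Over all genes tested the shares were 2.56% and 4.43%. The lower gene, Ifi27l2a (log2 -2.20), was not called with the strict filter. Its level in other-cell barcodes was 610.2, 252 and 141 CPM.

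Ifit1, which binds viral RNA, had 80, 18 and 6 UMIs in flox/flox, wt/flox and wt/wt members, or 63.8, 14.6 and 4.72 CPM, a log2 ratio of 3.76 (95% interval 2.57 to 5.25) in flox/flox over wt/wt. Isg15, a ubiquitin-like modifier, stood at 74.2, 13.8 and 6.30 CPM, with flox/flox over wt/wt at log2 3.56 (95% interval 2.52 to 4.81). Usp18, which removes Isg15 from proteins, had 90, 16 and 8 UMIs, with the same ratio at 3.51 (95% interval 2.47 to 4.77). In these 3 genes the wt/flox liver lay between the other two, although for Isg15 and Usp18 its interval over wt/wt included 0. In other-cell barcodes Ifit1 stood at 74.2, 19.6 and 10.4 CPM, Isg15 at 70.5, 37.7 and 17.0 CPM and Usp18 at 74.2, 14.7 and 5.67 CPM, also highest in flox/flox. An Ifit1 UMI was found in 5.99%, 1.31% and 0.446% of members, against 8.52%, 2.10% and 1.21% of other-cell barcodes, whose depths are given above. Expression in the members and free RNA from other cells cannot be told apart for these genes. Rsad2, the antiviral protein viperin, differed from this order: it stood at 36.7, 29.2 and 6.30 CPM, with wt/flox over wt/wt at log2 2.21 (95% interval 1.08 to 3.53), and flox/flox over wt/flox at 0.33 (95% interval -0.33 to 1.00). Irf7, a transcription factor of the response, stood at 105, 20.3 and 14.2 CPM.

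**Figure D5:**
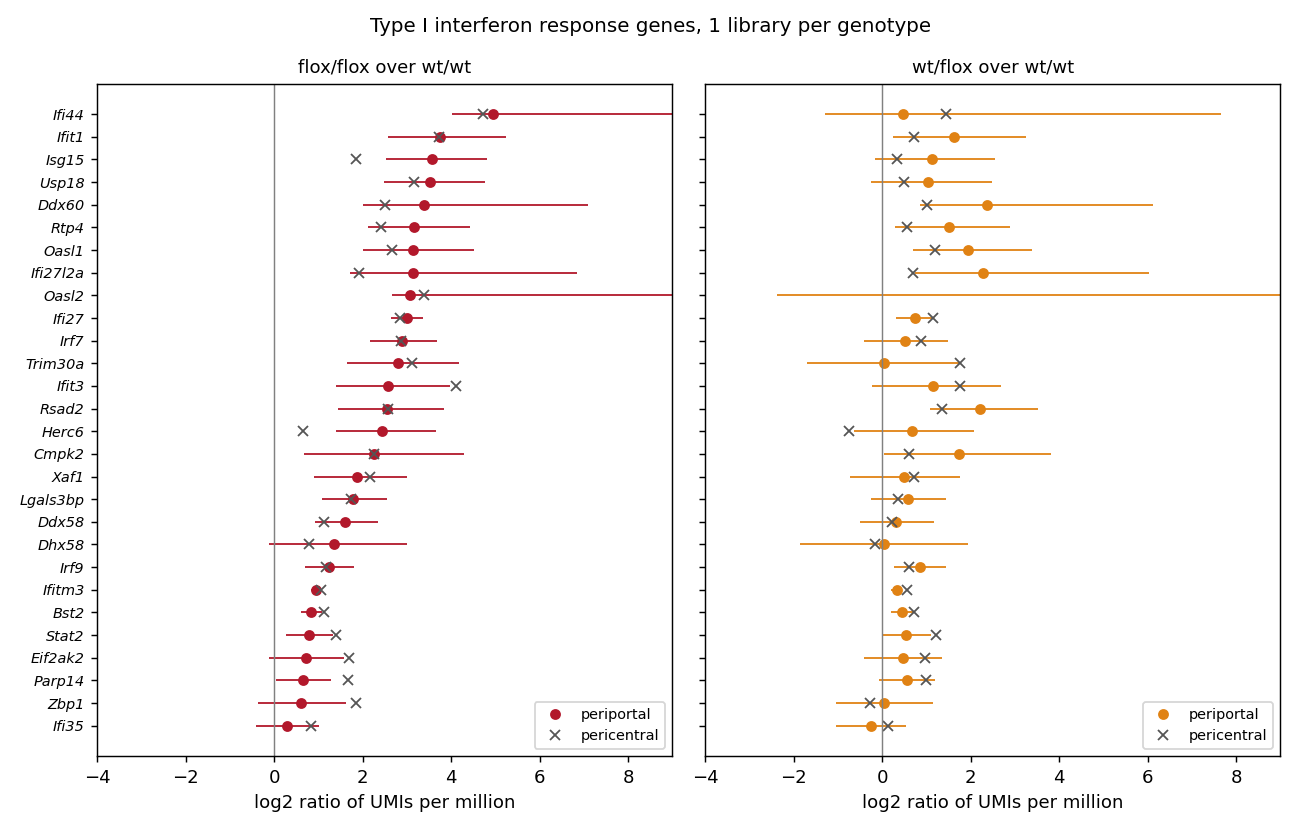
Log2 ratio of CPM in flox/flox over wt/wt (left) and wt/flox over wt/wt (right) for 28 of the 29 type I interferon response genes measured, 1 library per genotype: filled points with exact 95% counting intervals for periportal barcodes, drawn to the edge of the axis where they run past it, and crosses for pericentral barcodes. In flox/flox every periportal point lies above 0 and 27 lie past 1.5-fold, against 17% of all genes. Genes needed 20 UMIs over the 3 libraries, and one that reached them through flox/flox alone had to lie above 0. No point is drawn for Oasl2 in wt/flox, where both counts were at most 3.

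MHC class I genes followed in smaller steps. Of 19 measured 12 were at least 1.5-fold higher in flox/flox than in wt/wt (median log2 0.69), against 17% of all genes, and 2 of 19 than in wt/flox (median log2 0.42), against 15.4%. In wt/flox 6 of 19 were at least 1.5-fold higher than in wt/wt (median log2 0.40), against 13.1%. The same ratio had 1 of 20 higher in middle barcodes, against 1550 of all 11978 genes. In pericentral barcodes it had 1 of 19 higher, against 1205 of all 9087 genes. B2m, the shared light chain, stood at 2465, 1813 and 1204 CPM and H2-K1, a heavy chain, at 1349, 914 and 631 CPM, with flox/flox highest and wt/wt lowest. Grn stood at 130.1, 77.1 and 77.9 CPM, with flox/flox over wt/wt at log2 0.74 (95% interval 0.37 to 1.11) and wt/flox over wt/wt at -0.02 (95% interval -0.44 to 0.41). Other-cell barcodes, with 792, 533 and 494 CPM of Grn, were also highest in flox/flox, and the part of their RNA in the members' Grn was not tested. Egfr stood at 594, 227 and 398 CPM, with flox/flox over wt/wt at 0.58 (95% interval 0.41 to 0.74) and wt/flox over wt/wt at -0.81 (95% interval -1.03 to -0.60). The wt/flox liver thus lay with wt/wt for Grn and below both others for Egfr.

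The rule for named genes gave 10 higher and 10 lower in flox/flox than in both other livers. Cyp2a4, a steroid hydroxylase, had 115, 2 and 2 UMIs in members, with a log2 ratio of flox/flox over wt/wt between 3.98 and 8.93 (95% interval). Ly6a, an interferon-inducible surface protein, had 166, 21 and 0 UMIs, and was at least 56.1-fold higher in CPM in flox/flox than in wt/wt, taking 3 counts there. Of the 10 higher genes Ifi44 and Usp18 stand in the interferon list above. The other higher genes were Trim30d, Ifi27l2b, Fam124a, Plin4, Slc8a1 and Defb1. Plin4, a lipid droplet coat protein, stood at 39.1, 4.87 and 6.30 CPM in members. Lower in flox/flox than in both were Dlc1, Bcl6, Foxq1, Bcar3, Cry1, Srebf1, Zap70, Paxx, Fitm1 and Mup1. Bcl6, a repressor, stood at 11.2, 35.7 and 49.6 CPM, with flox/flox over wt/wt at log2 -2.15 (95% interval -3.10 to -1.30). Srebf1, a regulator of lipogenesis, stood at 31.1, 83.6 and 77.1 CPM, with the ratio at -1.31 (95% interval -1.88 to -0.76). Dlc1 stood at 7.98, 49.5 and 33.1 CPM in members, against 87.3, 154 and 245 CPM in other-cell barcodes.

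Enzymes of amino acid breakdown, many of them higher at the periportal end, were lower in flox/flox than in wt/wt: 11 of 30 were at least 1.5-fold lower and 0 higher (median log2 -0.45), against 10.9% of all genes lower. The same ratio had 11 of 30 lower in middle and 12 of 30 in pericentral barcodes, so that it was found in every zone. Of all genes 982 of 11984 were lower in middle and 996 of 9099 in pericentral barcodes. In flox/flox over wt/flox 4 of 30 were at least 1.5-fold higher and 0 lower (median log2 -0.15), against 15.4% and 12.4%. In wt/flox over wt/wt 5 of 30 were lower and 0 higher (median log2 -0.37), against 10.2%. Of the urea cycle list, Asl, at 485, 399 and 723 CPM, had flox/flox over wt/wt at log2 -0.58 (95% interval -0.73 to -0.43). Gls2, at 259, 354 and 454 CPM, had it at -0.81 (95% interval -1.01 to -0.61), and both were highest in wt/wt. Arg1 and Cps1, whose members' levels are given above, differed by less than 1.5-fold between livers. The periportal markers outside the score had medians of log2 -0.16 in flox/flox over wt/wt and -0.02 in wt/flox over wt/wt. In the first ratio 4 of 16 were at least 1.5-fold higher and 3 lower, against 17% and 10.9% of all genes. Beside these ratios the members' median mitochondrial share was 6.35%, 3.70% and 3.89%, highest in flox/flox, and its part in them was not tested.

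The wt/flox liver stood apart for metallothionein, glucocorticoid-responsive and major urinary protein genes. Mt1, a metal-binding metallothionein, stood at 3181, 245 and 3270.1 CPM, with wt/flox over wt/wt at log2 -3.74 (95% interval -3.91 to -3.57). Mt2, its neighbour, stood at 1023, 38.2 and 851 CPM, with the ratio at -4.48 (95% interval -4.93 to -4.06). Fkbp5, a glucocorticoid-induced chaperone, stood at 201, 15.4 and 83.4 CPM, with the ratio at -2.44 (95% interval -3.22 to -1.72). The flox/flox and wt/wt livers lay above wt/flox in all 3. Of 11 genes of that list 10 were at least 1.5-fold lower in wt/flox than in wt/wt (median log2 -1.62), against 10.2% of all genes. Of 14 major urinary protein genes 12 were at least 1.5-fold higher (median log2 1.20), against 13.1%, with Mup7 at 243, 1147 and 448 CPM. The growth hormone and cytokine targets Cish and Socs3 had 11, 71 and 7 UMIs and 3, 33 and 0 UMIs, and the growth regulator Myc had 3, 37 and 3 UMIs. Onecut1, a hepatocyte transcription factor, stood at 46.3, 109 and 12.6 CPM. The other named genes lower in wt/flox were Phf11c, Rgs16, Ppp1r3g, Ddit4, Setdb2 and Spata2l.

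Haemoglobin led the genes higher in wt/flox. Hbb-bs had 1, 979 and 11 UMIs in flox/flox, wt/flox and wt/wt members, Hba-a1 had 0, 326 and 1, Hba-a2 had 0, 300 and 3 and Hbb-bt had 0, 151 and 0. Hepatocytes do not make haemoglobin, and in the wt/flox library Hbb-bs stood at 795 CPM in periportal, 6287 CPM in middle, 6935 CPM in pericentral and 791 CPM in other-cell barcodes. The part of red cell RNA in the other wt/flox values was not tested.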

How the data were processed

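Per the file headers the deposited matrix came from Cell Ranger 6.1.1 and holds raw UMI counts per gene and barcode from 10x 3′ libraries, 1 per genotype. The submitters' processing notes name mm10 and Seurat. Whether counting used introns or strand is not given in the sources used here. Every deposited barcode was used, and doublets were not called and were kept in. UMI counts were summed per library and zone without the 12 score genes. Intervals are exact (Poisson for levels, Clopper-Pearson for shares and ratios of counts, 95%) and cover counting error only. Members, gene lists and tests were chosen with earlier results of these data known.

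The 9 sums were tested with edgeR 4.0.16 (quasi-likelihood, TMM factors, filterByExpr, Benjamini-Hochberg over 8369 genes, threshold 0.05), with the library as block, since the zones of a library come from 1 animal. The fit was tested on simulated data. DESeq2 1.42.0, other shares, depth, mitochondrial and other-cell limits, other score weights and genes, filters, totals and left-out libraries were the alternatives. A strict other-cell filter, a score without Pck1 and a Malat1 limit were added after seeing the data. Genes named by zone had an adjusted p below 0.05, 1 sign in all 3 libraries and at least 50 UMIs in the higher zone: the 12 largest each way, leaving out mitochondrial, ribosomal and predicted genes. Genes named by genotype had at least 30 UMIs in the higher library and a member level of at least 0.25 of that in other-cell barcodes: 10 each way for flox/flox against both others and 8 each way for wt/flox over wt/wt. List members with textbook roles were named too. Ratios of list members needed at least 20 UMIs over the 3 libraries. A few genes of the lists are not reported by name here. Promoter windows came from RefSeq on GRCm38.p6. Sums and intervals were made with pandas 2.3.3 and scipy 1.17.1 on Python 3.11.15, and the fits with R 4.3.3.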

Additional observations from a re-analysis of the deposited data

Results flagged for a closer look

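In 5 genes of the lists the zone difference had opposite signs in 2 livers with both 95% counting intervals clear of 0. The lists number 35, and these intervals make no allowance for the number of genes compared. The difference between livers was not tested, since each genotype is 1 library. Cyp8b1, the sterol 12-hydroxylase of bile acid synthesis, had log2 periportal over pericentral ratios of 0.35 in flox/flox, -0.08 in wt/flox and -0.45 in wt/wt. Gstm1, a glutathione transferase with near-identical relatives, had 0.27 in flox/flox, -0.10 in wt/flox and -0.01 in wt/wt. Slc10a1, the main bile acid uptake transporter, had -0.21 in flox/flox, 0.29 in wt/flox and -0.24 in wt/wt. Alb, albumin, had 0.07 in flox/flox, 0.05 in wt/flox and -0.04 in wt/wt. Apoc1, an apolipoprotein, had 0.13 in flox/flox, -0.08 in wt/flox and -0.02 in wt/wt.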

How the results depend on the processing

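Against pericentral barcodes the main test called 585 genes. It called 993 with the lowest and highest 25% of barcodes, 921 with equal weights, 1172 with the periportal score genes alone, 118 in barcodes of at least 2000 UMIs, 386 with the strict other-cell filter, 231 without Pck1 in the score, 273 at or below the median Malat1 share and 328 with DESeq2. Leaving out 1 library gave 228 to 562. Against middle barcodes it called 281, and 167 with 10%, 491 with 25%, 24 at 2000 UMIs, 144 with 0 other-cell UMIs, 1360 with equal weights, 164 with the periportal and 153 with the pericentral score genes alone, 53 with the strict filter, 24 by Malat1 share, 126 with DESeq2, 546 without the low-count filter and 446 with only the 2 zones fitted. Leaving out 1 library gave 102 to 272. Without the library as replicate block 33 and 0 genes were called (311 against middle at an unadjusted p below 0.05), while the block pairs zones of 1 animal. The causes of these shifts were not tested. The median of the periportal markers outside the score was 1.03, 0.72 and 0.79 in flox/flox, wt/flox and wt/wt at 1000 UMIs and 1.15, 1.18 and 1.39 at 2000 UMIs. It was 0.46 in flox/flox with the pericentral score genes alone, 0.38 in flox/flox by Malat1 share and 0.32 in wt/flox with 25%. The pericentral markers had -0.91 in flox/flox with 10%, -0.51 and -0.50 in flox/flox and wt/wt with 25%, -1.03 and -1.02 there at 1000 UMIs, -1.50 and -0.24 in flox/flox and wt/flox at 2000 UMIs, and -0.93 and -0.70 in flox/flox and wt/wt with equal weights. They had -0.076, -0.091 and -0.31 with the periportal score genes alone, -1.19, -0.86 and -1.04 with the pericentral ones alone, and in flox/flox -0.89 without Pck1 and -0.87 by Malat1 share. The interferon median of flox/flox over wt/wt was 2.15 with 10%, 1.74 with 25%, 2.09 with equal weights, 1.42 with the pericentral score genes alone and 2.02 without Pck1. Over wt/flox it was 1.44 at 1000 UMIs and 0.99 with the pericentral genes alone, and for wt/flox over wt/wt 0.88 with 25%. A score without Pck1 kept the call of 70 of the 214 higher and 125 of the 371 lower genes. With equal weights 7 genes of the main test were called the opposite way. With the pericentral score genes alone 159 were called the opposite way. That ranking kept the call of 56 of the 214 higher and 101 of the 371 lower genes. Among the named genes the sign turned under it in Jchain (4.62), Igha (5.01), Iglc1 (3.10), Igkc (4.21), Hist1h2ap (2.20), Hbb-bt (3.69), H2-Ab1 (2.97), Mzb1 (6.03), Iglc2 (5.82), Il7r (2.34), Hbb-bs (3.35) and Crip1 (2.48). Under that ranking a barcode with none of the 6 genes has the lowest score and can be a member. The part of such barcodes in the turned signs was not tested. Igha also turned with equal weights (1.45) and Iglc2 without Pck1 (0.47). Of the uncalled markers Pigr turned with the strict filter (-0.035) and by Malat1 share (-0.078), Nrn1 with the periportal score genes alone (0.020), and Alb with 25% (0.027), at 1000 UMIs (0.23), at 2000 UMIs (0.58), at 20% mitochondrial UMIs (0.075), with equal weights (0.21), with the periportal score genes alone (0.11), without Pck1 (0.17), without TMM factors (0.028) and without wt/wt (0.016, against -0.043 without flox/flox). Alb passed the test as higher at 1000 UMIs (adjusted p = 0.00508), at 2000 UMIs (6.70e-04) and with equal weights (3.36e-06), and as lower with the strict filter (log2 -0.14, adjusted p = 0.0128). Genotype ratios of single genes with a count of 3 or fewer under an alternative are not given. Depths of 823 to 867.5 UMIs per barcode (medians) limit every member call to a few score UMIs, and 1 liver per genotype limits every genotype value.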
